A study of Homo sapiens with 6 samples.

Results

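Solute carriers, named SLC with a family number, are the membrane transporters that bring amino acids, sugars, ions, metals and vitamins into cells, and that move metabolites across the membranes of mitochondria, the Golgi and lysosomes. Most are driven by the gradient of their substrate or of a co-transported ion, and not by ATP. Pancreatic cancer cells are known for a high demand for glutamine and other nutrients, which enter through members of several SLC families. The genes described here were the 117 rows of the expression table, of 18268 in all, that carried an SLC symbol without a joined second symbol and stood at 2 FPKM or more in at least 3 of the 6 libraries. FPKM counts fragments per length of transcript and size of library. The table held 340 SLC rows without a joined symbol, of which 69 were listed at 0 in all libraries and 146 lay above 0 but below the limit. A further 8 met the limit and were left out by name, among them the glucose transporter SLC2A1 and the lactate transporter SLC16A1. The 117 members came from 37 SLC families on 22 chromosomes.

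The libraries came from total RNA of MIA PaCa-2 cells, a long-established line from a human pancreatic cancer that the labels call epithelial, with a LINC00901 KO genotype (KO 1 to 3) or as vector control (LCV2 1 to 3). LINC00901 is a long non-coding RNA gene. Both groups grew in DMEM with 10% fetal bovine serum and 2.5% horse serum. The labels do not say whether the KO cells were a clone or a pool, or whether libraries came from separate cultures, so p-values measure the spread between these libraries, which may be technical. LINC00901 itself was not analysed here, so directions rest on the labels. Library sums lay between 123107 and 134389 FPKM, and 9153 to 9612 rows reached 1 FPKM in a library. Of the epithelial markers, KRT18 stood at 28.78 to 58 FPKM in KO and 70.41 to 79.42 FPKM in LCV2 libraries, while EPCAM and CDH1 were at 0.14 FPKM or below in all 6. Of 5 listed epithelial markers KRT8 has only a joined row, and the other 4 summed to 42.86 to 83.11 FPKM in KO and 96.88 to 117.63 FPKM in LCV2 libraries. Their part in the results was not tested. Vimentin, VIM, a mesenchymal filament gene, was at 459.52 to 674.8 FPKM in KO and 544.33 to 626.27 FPKM in LCV2 libraries. Of the other listed mesenchymal markers, CDH2 was at 0.06 FPKM or below in all 6. ZEB1 was at 3.54 to 4.34 FPKM in KO and 4.03 to 4.63 FPKM in LCV2 libraries. Listed markers of leukocytes, acinar cells and endothelium with a row of their own were below 1 FPKM. Of the fibroblast markers, DCN and LUM were at 0.17 FPKM or below, and COL1A1 was at 3.95, 2.87 and 1.05 FPKM in KO and 0.96, 1.67 and 1.64 FPKM in LCV2 libraries.

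Library LCV2 1 stood apart from LCV2 2 and 3, and this touches most results below. Across the 117 members, on the log2(FPKM + 1) scale, LCV2 2 and 3 correlated at r = 0.973, while LCV2 1 correlated at 0.858 with LCV2 2 and at 0.913 with KO 3. KO 1 also stood apart from its group. KO 2 and 3 correlated at 0.957, while KO 1 correlated at 0.911 with KO 2, at 0.922 with KO 3 and at 0.909 with LCV2 2. These values are across genes that share their libraries and are a description only. Relative to LCV2 1 and to the mean of LCV2 2 and 3, the KO mean had the same sign in 36 members that were higher and 26 that were lower, and opposite signs in 55.

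**Figure D1:**
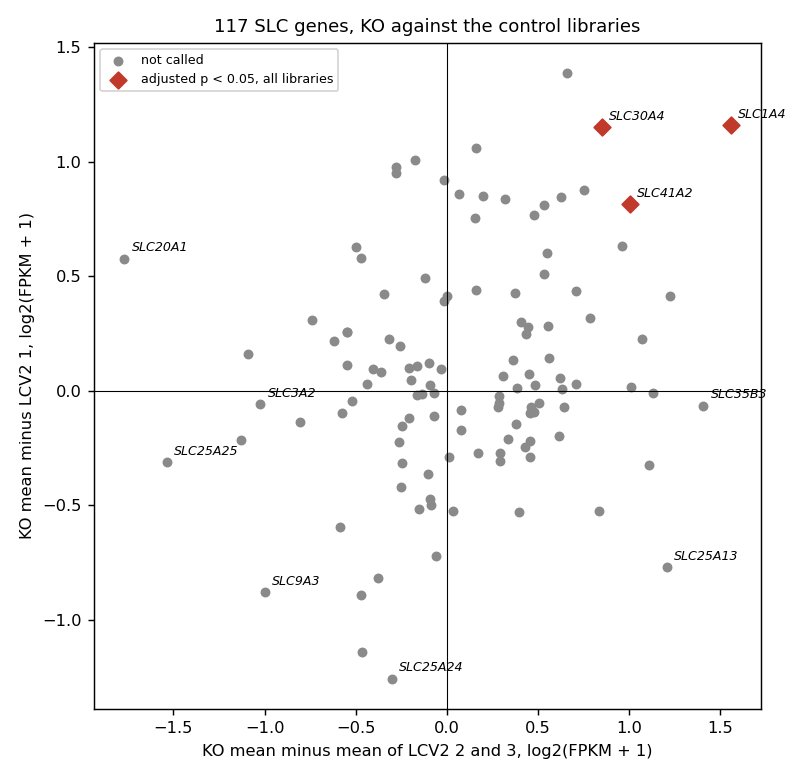
Each point is 1 of the 117 SLC genes, with the KO mean minus the mean of LCV2 2 and 3 on the x axis and the KO mean minus LCV2 1 on the y axis, both in log2(FPKM + 1). The 55 genes with opposite signs lie in the upper left and lower right, and the called SLC1A4, SLC30A4 and SLC41A2 lie at the upper right. Both axes contain the same KO libraries.

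In KO cells, 3 of the 117 members rose and 0 fell. They were SLC1A4, which encodes the neutral amino acid exchanger ASCT1, SLC30A4, which encodes a zinc transporter that loads vesicles, and SLC41A2, which encodes a magnesium transporter. They averaged 4.24, 2.41 and 3.09 times the FPKM of the LCV2 libraries. The test was limma on log2(FPKM + 1) across all 9624 rows with at least 1 FPKM in at least 3 libraries, with a call at a Benjamini-Hochberg adjusted p below 0.05. It called 2.56% of the members against 1.35% of all tested rows, with 0.509% of tested rows called higher and 0.842% called lower in KO. At an unadjusted limma p below 0.05, 17 of the 117 members were higher and 7 lower. All tested rows had 11.5% higher and 6.0% lower. SLC1A4 and SLC41A2, with 3 other members, met the limit of 2 FPKM only through the KO libraries, so a count of them is no support for a difference.

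SLC1A4 stood at 3.46, 4.97 and 5.48 FPKM in the KO libraries, against 1.49, 0.75 and 1.04 FPKM in the LCV2 libraries. Every KO library lay at more than 2 times the highest LCV2 library (log2 fold change 1.43, SE 0.21, adjusted p = 0.0288). SLC30A4 was nearly constant in the KO libraries, at 4.63, 4.63 and 4.61 FPKM, and stood at 1.53, 2.12 and 2.11 FPKM in the LCV2 libraries (log2 fold change 0.95, SE 0.15, adjusted p = 0.0351). SLC41A2 had 2.27, 2.13 and 3.01 FPKM in the KO libraries, against 0.96, 0.66 and 0.78 FPKM in the LCV2 libraries (log2 fold change 0.94, SE 0.16, adjusted p = 0.0396). The groups did not overlap for any of the 3 genes. Without LCV2 1 all 3 stayed called, with log2 fold changes of 1.56, 0.85 and 1. Without KO 1 only SLC1A4 did (limma adjusted p = 0.0311, against 0.0706 for SLC30A4 and 0.0702 for SLC41A2). Without any 1 of KO 2, KO 3, LCV2 2 or LCV2 3 none was called, with adjusted p from 0.117 to 0.194. Strand use is not given in the sources used here. In GENCODE 29, exons of SLC30A4 overlap those of HMGN2P46 and AC025580.2 on the opposite strand, so reads of these genes cannot be told apart. No such overlap was found for SLC1A4 and SLC41A2.

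**Figure D2:**
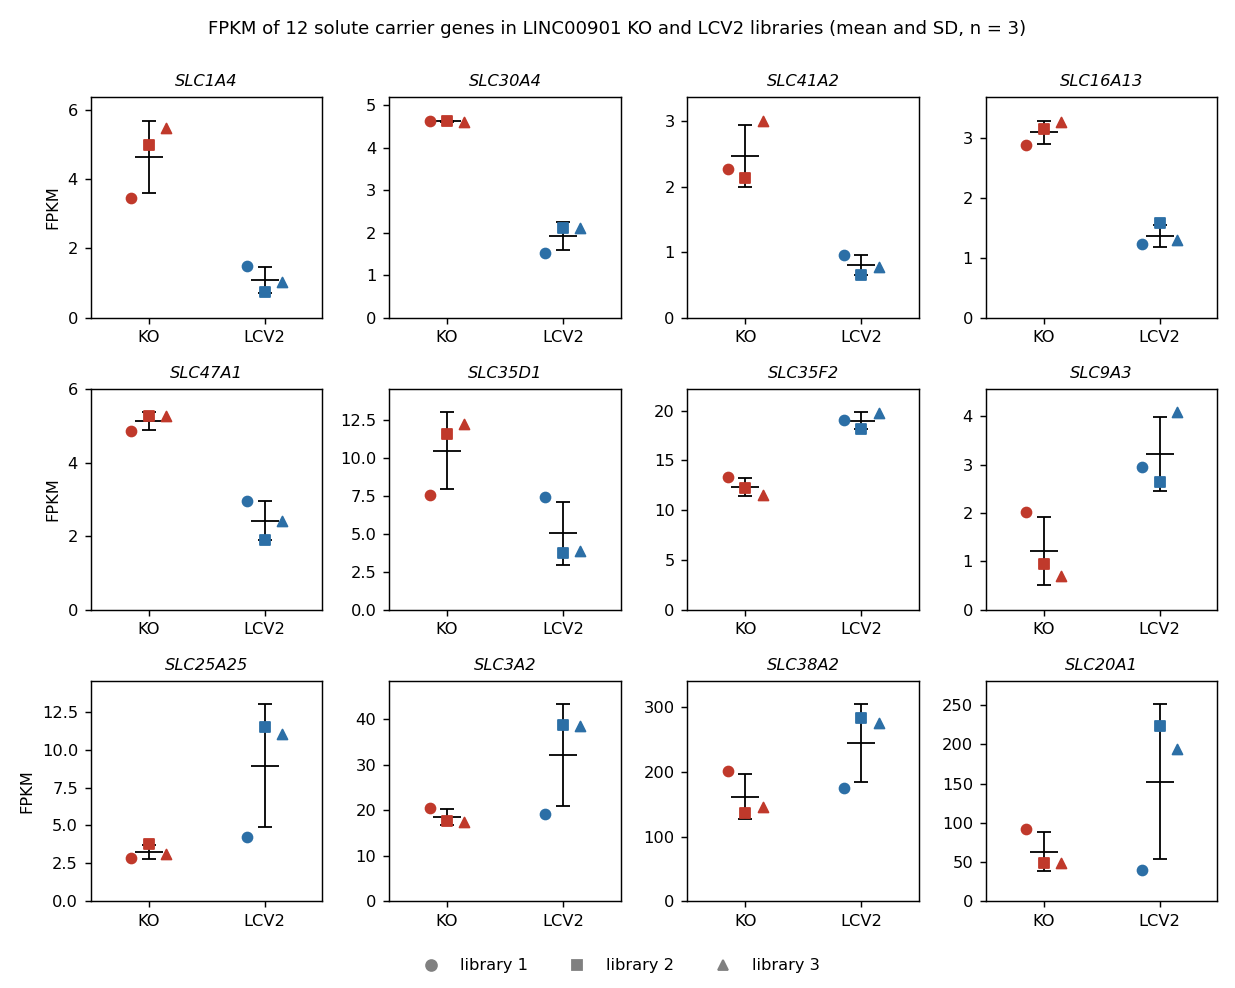
FPKM (y axis, from 0) of 12 SLC genes in the 3 KO and 3 LCV2 libraries. Points are libraries, with the shape giving the library number, and bars are the mean and SD. In the top row the groups are separate in every gene, and in SLC3A2 and SLC20A1 LCV2 1 lies away from LCV2 2 and 3.

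The promoters of the 3 called genes are shown because these genes rose together. The sequences are RefSeq entries on GRCh38.p14, from 250 bases before to 50 bases after a gene's start, 5′ to 3′ on the gene's strand. For SLC1A4 and SLC41A2, which have a second start in the table, the entry with more motif matches is given. Capitals mark matches, on either strand, to the amino acid response element core TGATGNAA, the E-box CACGTG, the GC box GGGCGG, the CCAAT box CCAAT and the TATA box TATAAA.
SLC1A4 (chr2:64989149-64989448, plus strand): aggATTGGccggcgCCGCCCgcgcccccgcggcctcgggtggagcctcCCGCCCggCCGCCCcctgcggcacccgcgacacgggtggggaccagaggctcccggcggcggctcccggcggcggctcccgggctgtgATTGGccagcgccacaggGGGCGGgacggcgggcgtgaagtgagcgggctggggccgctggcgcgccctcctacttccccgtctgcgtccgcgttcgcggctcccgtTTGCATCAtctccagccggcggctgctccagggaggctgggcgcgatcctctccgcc
SLC30A4 (chr15:45522706-45523005, minus strand): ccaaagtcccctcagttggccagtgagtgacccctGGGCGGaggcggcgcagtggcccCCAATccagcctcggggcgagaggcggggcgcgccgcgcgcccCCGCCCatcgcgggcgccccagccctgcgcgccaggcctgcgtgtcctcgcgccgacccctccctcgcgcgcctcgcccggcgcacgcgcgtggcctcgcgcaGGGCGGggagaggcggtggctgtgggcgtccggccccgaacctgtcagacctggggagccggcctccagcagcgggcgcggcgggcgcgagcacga
SLC41A2 (chr12:104958241-104958540, minus strand): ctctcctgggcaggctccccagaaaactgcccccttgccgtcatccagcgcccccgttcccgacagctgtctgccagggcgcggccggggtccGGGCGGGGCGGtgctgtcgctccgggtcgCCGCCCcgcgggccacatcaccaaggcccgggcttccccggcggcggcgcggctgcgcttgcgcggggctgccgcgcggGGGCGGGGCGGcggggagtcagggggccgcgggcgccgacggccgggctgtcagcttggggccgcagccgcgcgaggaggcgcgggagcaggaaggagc

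The amino acid response element core, the kind of site that ATF4 is known to bind, was in the shown SLC1A4 promoter, on the opposite strand, shortly before the start. It was in 3.62% of all 35116 promoter entries and in 5.19% of the 135 entries of the 99 members with an entry. The other 6 members with it were SLC1A5, SLC3A2, SLC7A1, SLC38A1, SLC25A11 and SLC39A11. None of these 6 was called, and their log2 fold changes ran from -0.70 for SLC3A2 to 0.38 for SLC38A1. The E-box, which MYC and MAX are known to bind, was in the second SLC41A2 entry, in 15.6% of member entries and in 7.26% of all entries. GC boxes, which overlap each other in the SLC41A2 sequence, were in 71.9% of member and 45% of all entries, and a CCAAT box was in 37% of member and 34.6% of all entries. The TATA box was in 4.44% of member and 11.5% of all entries. Member entries had a median GC content of 67.3%, against 58.7% for all entries.

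The remaining 114 members did not pass the test. Over all 117 members the median log2 fold change was 0.14, against 0.08 over all tested rows. Of the members, 58.1% had a fold change above 0, against 59.3% of all tested rows. The 3 KO libraries lay above the 3 LCV2 libraries without overlap in 17 members (14.5%) and below them in 8 (6.84%), where all tested rows had 15.4% and 8.35%, or 23.8% in either direction. These shares are near the background. The members' summed FPKM was 1381.8, 1316.2 and 1274.7 in KO 1 to 3, against 1268.3, 1615.7 and 1594.0 in LCV2 1 to 3. LCV2 1 lay below every KO library in this sum and LCV2 2 and 3 above them.

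**Figure D3:**
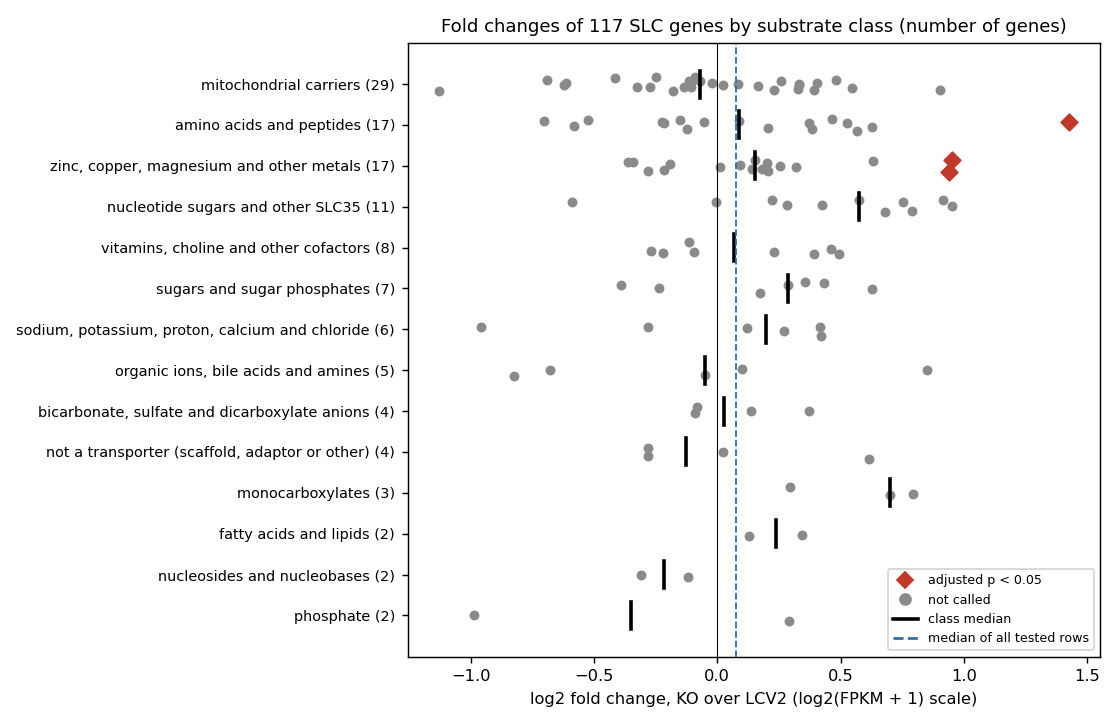
Log2 fold changes (KO over LCV2, x axis) of the 117 SLC genes in rows by substrate class, with the number of genes per class. Diamonds are the 3 called genes, bars the class medians, and the dashed line the median of all tested rows, 0.08. The SLC35 class (0.57) and the monocarboxylate class (0.70) have the highest medians, and 2 of the 3 monocarboxylate genes met the limit only through KO.

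Amino acid and peptide transporters numbered 17, of which SLC1A4 rose and 0 fell (median log2 fold change 0.09). SLC1A5, or ASCT2, the main glutamine importer of many cancer cells and the paralog of SLC1A4, stood at 26.45, 23.92 and 25.18 FPKM in KO and 35.95, 26.86 and 26.77 FPKM in LCV2 libraries. The groups did not overlap, KO 1 lying just below LCV2 3, and the difference did not pass (log2 fold change -0.22, SE 0.16, adjusted p = 0.522). SLC6A9, the glycine transporter GLYT1 and 1 of the members nearest above the limit, had 2.64, 2.66 and 2.12 FPKM in KO, against 1.28, 1.40 and 1.34 FPKM in LCV2 libraries (0.57, adjusted p = 0.123). It met the limit only through the KO libraries.

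SLC3A2 encodes the heavy chain 4F2hc, which carries the light chains of the SLC7 family, such as LAT1, to the plasma membrane. It stood at 20.61, 17.65 and 17.34 FPKM in the KO libraries, against 19.27, 38.68 and 38.55 FPKM in the LCV2 libraries. LCV2 1 lay among the KO libraries, and LCV2 2 and 3 were about alike and higher (log2 fold change -0.70, SE 0.28, adjusted p = 0.255). The LAT1 gene SLC7A5 had 25, 42.16 and 37.92 FPKM in KO and 28.66, 25.34 and 24.72 FPKM in LCV2 libraries, with KO 1 among the controls (0.37, adjusted p = 0.407). The most abundant member of the class was SLC38A2, the sodium-coupled transporter SNAT2. It stood at 201.42, 137.41 and 146.1 FPKM in KO and 175.07, 283.26 and 275.39 FPKM in LCV2 libraries (-0.58, SE 0.24, adjusted p = 0.278). As in SLC3A2, LCV2 1 was within the KO range. The other 5 SLC38 members all had fold changes above 0, and SLC38A4, SLC38A7 and SLC38A10 did not overlap between groups, at 0.46, 0.63 and 0.52 on the log2 scale. Of all tested rows, 59.3% were above 0 and 15.4% were higher without overlap. None of the 3 passed, and in SLC38A1 and SLC38A9 the KO mean lay below LCV2 1, with differences of -0.52 and -0.53 on the log2 scale. SLC7A6OS, a gene opposite SLC7A6 that encodes no transporter, was also near the limit, at 1.7, 1.17 and 2.03 FPKM in KO and 1.18, 2.34 and 3.36 FPKM in LCV2 libraries.

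Metal transporters also numbered 17, of which SLC30A4 and SLC41A2 rose and 0 fell (median 0.15). SLC30 proteins move zinc out of the cytosol, into vesicles or out of the cell, and most SLC39 or ZIP proteins move it in. The 6 SLC30 members all had fold changes above 0, with a median of 0.26. The 7 SLC39 members divided into 3 above and 4 below 0, with a median of -0.19. All tested rows had 59.3% above 0, with a median of 0.08. At an unadjusted limma p below 0.05 there was 1 SLC30 member, SLC30A4, and 0 SLC39 members. The SLC30 direction rests on LCV2 2 and 3, since the KO mean lay below LCV2 1 in all SLC30 members but SLC30A4. The SLC30 median, taken in each library against the LCV2 mean of each gene, was 0.20, 0.19 and 0.39 in KO 1 to 3, against 0.39, -0.15 and -0.24 in LCV2 1 to 3. SLC30A6, which was chosen after its values were seen, stood at 11.26, 7.6 and 8.83 FPKM in KO and 11.67, 3.46 and 3.92 FPKM in LCV2 libraries. Its spread within LCV2 exceeded the difference between the groups (0.63, SE 0.40, adjusted p = 0.450). SLC39A14, or ZIP14, which imports zinc, iron and manganese, was the most abundant, at 32.77, 33.81 and 32.01 FPKM in KO and 36.69, 40.02 and 38.16 FPKM in LCV2 libraries. The groups did not overlap, but the difference of -0.21 did not pass (SE 0.13, adjusted p = 0.433). The lowest fold change of the class was that of SLC41A3, a mitochondrial magnesium transporter and paralog of SLC41A2. It had 2.56, 1.88 and 2.36 FPKM in KO and 2.36, 3.42 and 3.93 FPKM in LCV2 libraries (-0.36, adjusted p = 0.373). The copper importer gene SLC31A1 was at 16.5 ± 2.94 FPKM in KO and 16.2 ± 0.888 FPKM in LCV2 libraries (SD, n = 3 each).

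**Figure D4:**
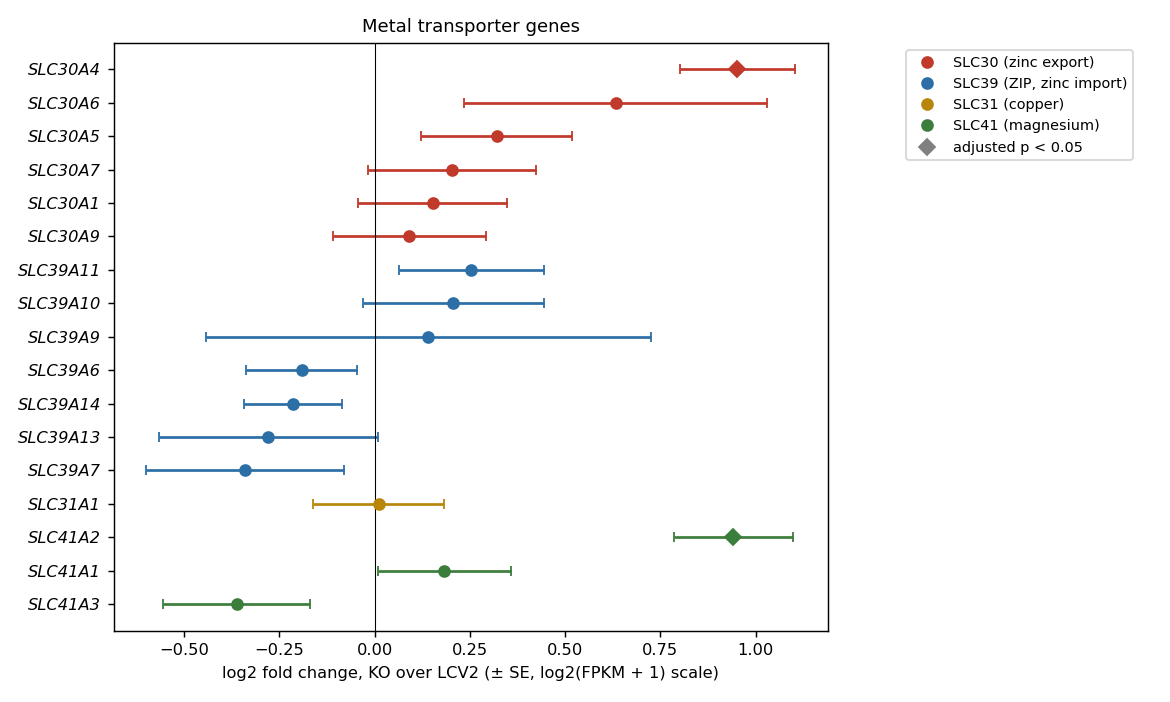
Log2 fold changes with SE (KO over LCV2, x axis) of the 17 metal transporter genes, coloured by family. The 6 SLC30 genes lie above 0, led by the called SLC30A4 at 0.95 and, for the others, only through LCV2 2 and 3, and the 7 SLC39 genes lie on both sides, from -0.34 to 0.25.

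The 29 mitochondrial carriers of family SLC25 formed the largest class, and 0 were called in either direction by limma (median -0.07). At an unadjusted limma p below 0.05, 2 were higher and 2 lower, where all tested rows had 11.5% higher and 6.0% lower. SLC25A6, an ADP/ATP carrier, had the highest mean of all members over the 6 libraries, followed by SLC38A2. It stood at 264.49, 231.16 and 204.02 FPKM in KO and 202.48, 264.04 and 290.75 FPKM in LCV2 libraries (log2 fold change -0.11, SE 0.19, adjusted p = 0.811). ADP/ATP carrier genes have close paralogs and many pseudogenes, so this value depends on how shared reads were assigned. SLC25A3, which imports phosphate for ATP synthesis, had 32.4 ± 2.64 FPKM in KO and 29 ± 4.54 FPKM in LCV2 libraries (SD, n = 3 each, limma adjusted p = 0.645). SLC25A1, which exports citrate for lipid synthesis, had 26.8 ± 8.90 FPKM in KO and 35.3 ± 7.19 FPKM in LCV2 libraries (SD, n = 3 each, limma adjusted p = 0.462). The lowest fold change among all members was that of SLC25A25, a calcium-regulated ATP-magnesium/phosphate carrier. It stood at 2.86, 3.78 and 3.12 FPKM in KO, against 4.26, 11.49 and 11.06 FPKM in LCV2 libraries. All KO libraries were lower than every LCV2 library, with LCV2 1 the nearest (-1.13, SE 0.34, adjusted p = 0.175). Exons of SLC25A25 overlap SLC25A25-AS1, NAIF1 and AL360268.1 on the opposite strand in GENCODE 29. SLC25A35, a carrier whose substrate is not settled, had 5.47, 6.04 and 4.79 FPKM in KO and 1.45, 3.37 and 2.76 FPKM in LCV2 libraries (0.90, SE 0.24, adjusted p = 0.141). Its exons overlap RANGRF, a row of its own at 9.35 to 11.36 FPKM in KO and 6.42 to 11.03 FPKM in LCV2 libraries.

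Family SLC35 is known for carriers of nucleotide sugars into the Golgi and endoplasmic reticulum for glycosylation, though not all of its members carry them. Its 11 members here had a median log2 fold change of 0.57. Of these, 9 were above 0 and 0 were called, with 2 higher and 1 lower at an unadjusted limma p below 0.05. All tested rows had 59.3% above 0, with a median of 0.08, and 11.5% higher and 6.0% lower at that p. The class median, taken in each library against the LCV2 mean of each gene, was 0.41, 0.70 and 0.58 in KO 1 to 3, against 0.41, -0.16 and -0.22 in LCV2 1 to 3. LCV2 1 therefore lay beside KO 1. SLC35D1, which carries UDP-glucuronic acid and UDP-N-acetylgalactosamine, had 7.56, 11.57 and 12.27 FPKM in KO and 7.45, 3.76 and 3.89 FPKM in LCV2 libraries (0.95, SE 0.28, adjusted p = 0.170). The PAPS transporter gene SLC35B3, chosen after its values were seen, stood at 5.19, 5.59 and 6.23 FPKM in KO and 5.96, 1.36 and 1.67 FPKM in LCV2 libraries (0.92, SE 0.39, adjusted p = 0.289). In contrast, SLC35F2, known for importing the drug sepantronium, was lower in every KO library. It had 13.3, 12.17 and 11.47 FPKM in KO, against 19.08, 18.12 and 19.77 FPKM in LCV2 libraries (-0.59, SE 0.14, adjusted p = 0.110).

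**Figure D5:**
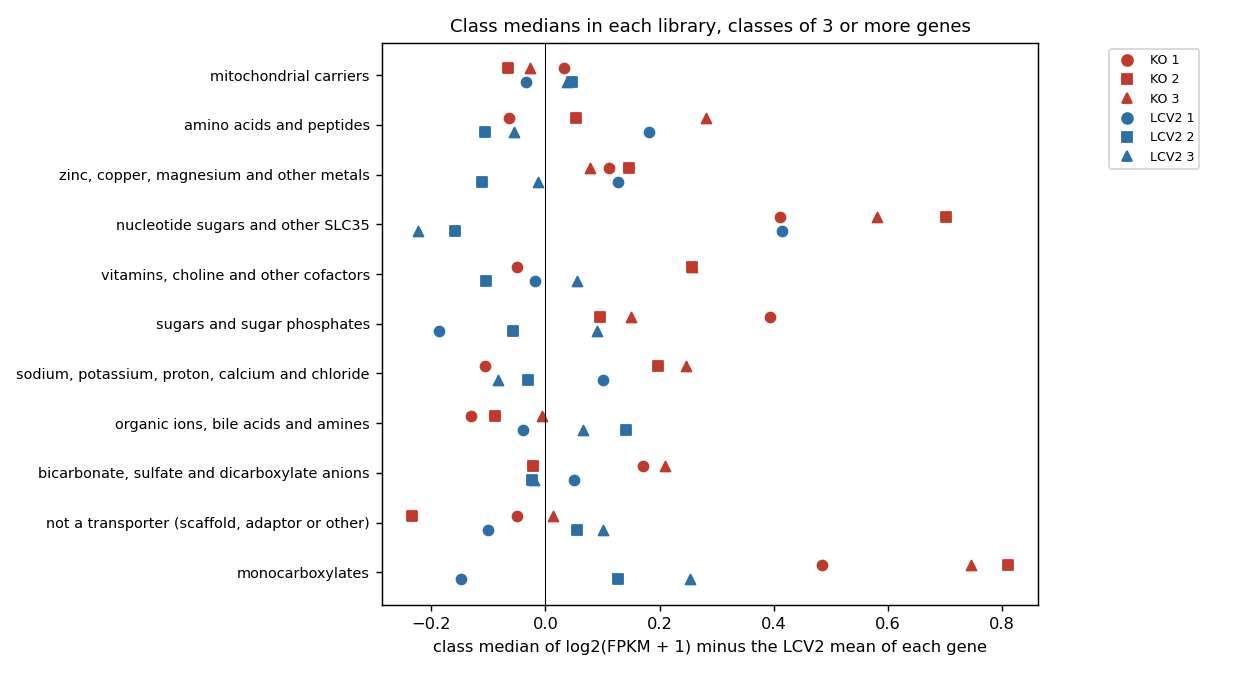
Median over the genes of each class of log2(FPKM + 1) minus the gene's LCV2 mean (x axis), for the 3 KO and 3 LCV2 libraries, in classes of 3 or more genes. In the SLC35 class LCV2 1 (0.41) lies beside KO 1 (0.41), apart from LCV2 2 and 3 (-0.16 and -0.22). In the monocarboxylate class 2 of the 3 genes met the limit only through KO, so its separation follows from their choice.

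Of the 3 monocarboxylate members 0 were called, with 2 higher at an unadjusted limma p below 0.05. These were SLC16A13 and SLC16A14, which both met the limit of 2 FPKM only through the KO libraries, so the class median of 0.70, the value of SLC16A14 itself, is no support for a direction. SLC16A13, or MCT13, stood at 2.88, 3.14 and 3.26 FPKM in KO, against 1.23, 1.58 and 1.29 FPKM in LCV2 libraries (0.79, SE 0.14). Its adjusted p of 0.0502 was just above the threshold. SLC16A14 had 2.24, 3.40 and 2.72 FPKM in KO, against 1.09, 1.15 and 1.76 FPKM in LCV2 libraries (0.70, adjusted p = 0.143).

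Among the inorganic ion transporters, SLC9A3, the sodium-proton exchanger NHE3 of absorptive epithelia, had 2.02, 0.94 and 0.7 FPKM in KO, against 2.96, 2.63 and 4.08 FPKM in LCV2 libraries. Every KO library was lower (log2 fold change -0.96, SE 0.25, adjusted p = 0.141). Its exons overlap SLC9A3-AS1 and EXOC3 on the opposite strand and PP7080 on its own. SLC9A3R1 encodes NHERF1, a scaffold that binds NHE3 and is no transporter. It stood at 10.34, 5.55 and 5.52 FPKM in KO, against 4.80, 4.41 and 3.28 FPKM in LCV2 libraries (0.62, SE 0.26, adjusted p = 0.277), and the related SLC9A3R2 at 2.61, 1.45 and 2 FPKM in KO, against 1.92, 2.71 and 3.39 FPKM in LCV2 libraries (-0.28). The sodium-potassium-chloride cotransporter gene SLC12A2 had 3.76 ± 0.124 FPKM in KO and 4.93 ± 1.66 FPKM in LCV2 libraries (SD, n = 3 each, limma adjusted p = 0.538).

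Among anion and phosphate carriers, the chloride-bicarbonate exchanger gene SLC4A2 was higher in every KO library, at 6.72, 8.9 and 8.07 FPKM, against 6.18, 5.76 and 5.6 FPKM in LCV2 libraries (0.37, SE 0.16, adjusted p = 0.280). Its exons overlap CDK5 on the opposite strand, itself at 7.43 to 9.02 FPKM in KO and 3.9 to 6.02 FPKM in LCV2 libraries. The sulfate transporter gene SLC26A2 overlapped between the groups, at 4.75, 1.54 and 6.65 FPKM in KO and 4.89, 4.02 and 3.54 FPKM in LCV2 libraries (-0.09). SLC20A1, or PiT1, a sodium-phosphate importer, varied more than most members, at 92.14, 48.86 and 48.84 FPKM in KO and 40.13, 223.47 and 194.28 FPKM in LCV2 libraries. LCV2 1 was the lowest of the 6 libraries and LCV2 2 and 3 the highest (log2 fold change -0.99, SE 0.64, adjusted p = 0.465).

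No gene of the organic ion, sugar or nucleoside classes was called. SLC47A1, or MATE1, which exports organic cations, had 4.85, 5.26 and 5.27 FPKM in KO, against 2.95, 1.89 and 2.42 FPKM in LCV2 libraries (0.85, SE 0.17, adjusted p = 0.0666). The vesicular nucleotide transporter gene SLC17A9 had 2.52, 1.63 and 1.5 FPKM in KO and 2.31, 5.13 and 5.33 FPKM in LCV2 libraries, with LCV2 1 among the KO values (-0.82, adjusted p = 0.217). Of 7 sugar carriers 0 were called, and 0 had an unadjusted limma p below 0.05. The glucose transporter gene SLC2A12 had 7.49 FPKM in KO 1 and 2.09 and 2.39 FPKM in KO 2 and 3, against 1.54, 1.78 and 2.42 FPKM in LCV2 libraries (0.63, adjusted p = 0.436). Its highest value was in a single KO library. SLC50A1, a sugar transporter of the SWEET family, stood at 7.99, 6.97 and 11.29 FPKM in KO and 6.73, 11.8 and 18.99 FPKM in LCV2 libraries (-0.39, adjusted p = 0.611).

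Of the 8 vitamin, choline and cofactor carriers 0 were called, and 1 was higher at an unadjusted limma p below 0.05, against 11.5% of all tested rows. The choline transporter gene SLC44A1 had the highest fold change (0.49, adjusted p = 0.471) and SLC49A4 the lowest (-0.27). SLC29A1, or ENT1, which equilibrates nucleosides and takes up gemcitabine, had 7.77, 11.11 and 10.53 FPKM in KO, against 13.32, 11.86 and 11.65 FPKM in LCV2 libraries. All KO libraries were lower, but the difference did not pass (-0.31, SE 0.17, adjusted p = 0.398). Just inside the limit lay SLC45A4, with 2 FPKM as the value that decided its inclusion, then SLC7A6OS at 2.03 and SLC6A9 at 2.12 FPKM. Just outside lay SLC16A5, SLC22A4 and SLC43A2 at 1.99, 1.98 and 1.95 FPKM.

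When LCV2 1 was left out, 23 members were called, or 19.7%, against 13.8% of all tested rows, and all 3 genes called with every library were among them. Of these, 16 were higher (13.7% of members, against 8.74% of all tested rows) and 7 lower (5.98%, against 5.07%). Among the higher genes, SLC1A4, SLC41A2, SLC16A13 and SLC6A9 met the limit of 2 FPKM only through the KO libraries. These genes became members through the group in which they were high, so the higher share and the total are no support for a difference. The SLC35 family gave 6 of the higher genes, SLC35B3 (1.41), SLC35D1 (1.22), SLC35B4 (1.13), SLC35G2 (1.07), SLC35A4 (1.01) and SLC35F5 (0.63). The zinc gene SLC30A6 was also among them (1.11, adjusted p = 0.0214), with SLC47A1, SLC38A7, SLC16A13, SLC25A35, SLC2A6 and SLC6A9. The 7 lower genes were SLC20A1 (-1.77), SLC25A25 (-1.53), SLC17A9 (-1.13), the sialic acid exporter gene SLC17A5 (-1.09), SLC3A2 (-1.02), SLC38A2 (-0.81) and SLC35F2 (-0.58). Their adjusted p ran from 0.00677 for SLC25A25 to 0.0460 for SLC38A2. This fit rests on 2 control libraries that were alike, and among the 6 SLC35 genes, SLC30A6 and the 7 lower genes LCV2 1 lay within the KO range or on its far side, except in SLC35D1, SLC35F2 and SLC25A25. All 3 KO libraries lay above LCV2 2 and 3 in 45 members, and LCV2 1 was below all KO libraries in 17 of these. They lay below LCV2 2 and 3 in 25 members, and LCV2 1 was above all KO libraries in 8 of these. The matching shares over all tested rows were not taken, so these counts describe the libraries and are no result about SLC genes. What sets LCV2 1 apart was not tested. With robust limma and array weights, which give each library its own weight, 62 members were called, 42 higher and 20 lower, where all tested rows had 41.8% called, 27% higher and 14.8% lower. The 42 include the 5 members that met the limit only through the KO libraries, so the member share is again no support for a difference.

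Other transport genes were read from the same fit. Among 15 tested genes of P-type ATPases and their subunits, 2 fell and 0 rose (median -0.13), where 0.842% of all tested rows were called lower and 0.509% higher. They were ATP13A3, a polyamine transporter, at 8.14, 5.82 and 6.2 FPKM in KO, against 15.78, 17.37 and 14.84 FPKM in LCV2 libraries (log2 fold change -1.15, adjusted p = 0.0288), and ATP2B1, a calcium pump of the plasma membrane, at 0.44, 0.64 and 0.31 FPKM in KO, against 2.24, 2.11 and 1.94 FPKM in LCV2 libraries (-1.09, adjusted p = 0.0183). Of 18 tested ABC transporters 0 were called (median 0.27), with 5 higher at an unadjusted limma p below 0.05. Of 30 tested transporters with other symbols 0 were called (median 0.05), with 4 higher and 1 lower at that p. All tested rows had 11.5% higher and 6.0% lower at that p, and a median of 0.08. Of 6 tested partner and scaffold genes, among them the members SLC9A3R1 and SLC9A3R2, 0 were called (median -0.13), and SLC9A3R1 was the only one with an unadjusted limma p below 0.05. Of the others, BSG, the chaperone of MCT1 and MCT4, had 74.07, 72.52 and 71.37 FPKM in KO and 58.14, 74.61 and 84.7 FPKM in LCV2 libraries. Of the 8 tested transporters left out by name, the betaine transporter gene SLC6A12 fell and 0 rose (median -0.31). ATP2B1 and SLC6A12 reached 1 FPKM only in the LCV2 libraries, so counting them as fallen is no support for a difference.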

How the data were processed

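Total RNA of 3 LINC00901 KO and 3 vector control (LCV2) samples of MIA PaCa-2 was sequenced, and groups and library numbers came from the sample titles. The authors deposited 1 table of FPKM with a column per library and values to 2 decimals. The submitters' processing notes name hg19 and the tools HISAT2, cutadapt and FastQC. Tool versions, annotation, strand setting and the FPKM program: not given in the sources used here. Single-transcript genes of at most 1000 bases showed no whole-read steps (best concentration 0.496, where exact multiples give 1), so depth is unknown.

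From these values, rows that reached 1 FPKM in 3 or more libraries (9624 of 18268) were tested with limma 3.58.1 in R 4.3.3 (eBayes with trend after lmFit, two-sided) on log2(FPKM + 1) without covariates. Adjusted p is Benjamini-Hochberg over all tested rows, called below 0.05. The pseudocount of 1 understates changes of low genes. The fit was tested on simulated data. Means are given ± SD, and fold changes with the SE of limma.

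Members and lists were chosen with earlier results of these data known. Substrate classes follow family numbers, and SLC7A6OS was set among genes that are no transporters after the table was seen. Named were the called members, the highest and lowest fold change in each class of 3 or more, the 8 most abundant, 9 listed genes where they are members, and those at the limit. Named outside this rule, after their values were seen, were SLC7A1, SLC38A1, SLC25A11, SLC39A11, SLC38A4, SLC38A7, SLC38A9, SLC38A10, SLC16A14, SLC30A6, SLC31A1, SLC2A6, SLC17A5, SLC39A8, SLC44A5 and SLC35A4, B3, B4, F5 and G2. Alternatives were pseudocounts of 0.5 and 0.1, no filter or one at 5 FPKM, median scaling, quantile normalization, no trend, array weights, the replicate block, each library left out, and other thresholds. No test was made over the lists. Some genes that meet the naming rule are not reported here.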

Additional observations from a re-analysis of the deposited data

How the results depend on the processing

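The 3 called members held the direction of their fold change under every alternative in which they were tested, but not their calls. The number of called members was 0 to 23 over the 6 fits that left out 1 library each (0 to 16 higher, 0 to 7 lower). Array weights gave 62 (42 higher, 20 lower), and it was 1 after quantile normalization and 0 with a filter at 5 FPKM or with members taken at 5 FPKM, which the 3 genes do not reach. At adjusted p below 0.01 it was 0 and below 0.1 it was 5. Median scaling ended the call of SLC30A4 (adjusted p = 0.0518), and quantile normalization those of SLC30A4 (0.0502) and SLC41A2 (0.0847).

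Over all tested rows 130 were called, 49 higher and 81 lower. The count was 25 to 1329 without single libraries (1 to 841 higher, 24 to 488 lower), 241 without a filter (110 higher, 131 lower), 59 with a filter at 5 FPKM (13 and 46), and 4020 with array weights (2596 and 1424). Quantile normalization gave 31 higher. At adjusted p below 0.01 there were 31 (4 and 27) and below 0.1 there were 274 (131 and 143). With the replicate number as a block, 7 rows were called (0 higher, 7 lower) and 0 members, and adjusted p was 0.213, 0.219 and 0.217 for SLC1A4, SLC30A4 and SLC41A2. Deviations of same-numbered libraries from their group means correlated at r = -0.374, -0.153 and -0.264 across genes. With so few libraries per group these deviations depend on each other, and KO 1 and LCV2 1 stood apart from their groups. The values therefore cannot show whether or not the numbers pair the libraries.

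The member median of 0.14 was 0.074 after median scaling, 0.0739 after quantile normalization and 0.0796 to 0.158 without single libraries. Without single libraries the class medians ran from 0.0368 to 0.379 for amino acids, -0.0058 to 0.230 for bicarbonate and sulfate, -0.15 to 0.0043 for mitochondrial carriers, 0.43 to 0.79 for SLC35, -0.156 to -0.0464 for organic ions, and 0.0446 to 0.286 for metals. With array weights they were 0.45 for amino acids, -0.16 for mitochondrial carriers and 0.27 for metals. After quantile normalization they were -0.0798 for bicarbonate and sulfate, -0.15 for organic ions and 0.13 for sugars. The mitochondrial median was -0.13 after median scaling, and the monocarboxylate median was 1.02 with a pseudocount of 0.1. With a filter at 5 FPKM, which left few genes per class, they were -0.22 for amino acids, 0.37 for bicarbonate and sulfate, 0.30 for monocarboxylates, 0.32 for the genes that are no transporters, -0.29 for organic ions, -0.39 for sugars and 0.23 for vitamins.

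Genes that the naming rule gave and that reversed sign, none of them called, were SLC26A2 (0.0095 with array weights, 0.0128 without LCV2 1, 0.373 without KO 2, -0.422 to 0.373 over all libraries left out) and SLC25A6 (0.0043 without LCV2 3, down to -0.256). Of the genes named outside the rule, SLC7A1 (0.0073 without KO 1), SLC38A9 (-0.074 without LCV2 2), SLC31A1 and SLC25A11 also reversed under some alternatives. The cause was not tested for any of these shifts, other than the loss of low genes at 5 FPKM.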

Other observations

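Another 33 rows joined an SLC symbol with that of a neighbouring or overlapping gene, and 25 of them met the limit of 2 FPKM. Of these 33, 27 were tested, and 17 of them had a log2 fold change above 0 (median 0.05). All tested rows had 59.3% above 0 (median 0.08). Of the 27, 1 was called, against 1.35% of all tested rows. It was the row SLC4A7;NEK10, named after its value was seen, which joins a sodium-bicarbonate cotransporter gene and a kinase gene. It stood at 3.82, 2.31 and 2.40 FPKM in KO, against 8.32, 15.52 and 16.01 FPKM in LCV2 libraries (log2 fold change -1.86, SE 0.28, limma adjusted p = 0.0293). The part of either gene in this value cannot be told apart. The joined row of the ADP/ATP carrier gene SLC25A5 and SLC25A43 had 65.72, 67.98 and 91.9 FPKM in KO and 76.44, 104.18 and 114.15 FPKM in LCV2 libraries (-0.38, adjusted p = 0.398).

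Another 29 SLC rows were tested but lay below the limit, and 0 were called by limma. At an unadjusted limma p below 0.05, 6 were higher and 1 was lower in KO. All tested rows had 11.5% higher and 6.0% lower at that p. Among them, chosen after its values were seen, the ZIP8 metal importer gene SLC39A8 had 0.02, 0.65 and 0.46 FPKM in KO, against 2.41, 1.58 and 1.70 FPKM in LCV2 libraries (-1.09, SE 0.21, adjusted p = 0.0666). SLC44A5 had 1.83, 1.43 and 1.5 FPKM in KO, against 0.45, 0.80 and 0.57 FPKM in LCV2 libraries (0.69, SE 0.14, adjusted p = 0.0801). SLC39A8 reached 1 FPKM only in the LCV2 libraries and SLC44A5 only in the KO libraries. These rows, and the counts they enter, are therefore no support for a difference.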
